A study of Mus musculus with 19 samples.

Results

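The genes described here encode the nuclear subunits of the 5 oxidative phosphorylation complexes, and were measured in mouse hippocampus by microarray. A gene was a member if its RefSeq symbol began with Nduf (other than the Ndufaf assembly factors), Uqcr, Cox4 to Cox8 or Atp5 (other than Atp5s), or was Sdha, Sdhb, Sdhc or Sdhd, and if it had a probe well above background on at least 6 arrays. This gave 83 members among 25599 genes tested: 36 of complex I, 4 of complex II, 8 of complex III, 16 of complex IV, 17 of complex V and the pair Ndufa4 and Ndufa4l2. The protein of Ndufa4 bears a complex I name but was later assigned to complex IV, so the pair was kept apart. Of the other protein-coding genes that fit the rule, Cox8c had a matched probe that passed the background test on 0 arrays, and Cox5b, Ndufb1, Ndufb4b and Ndufb4c had no matched probe. All 83 members were well above background on all 19 arrays, so no member had entered through a single group.

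Hippocampal RNA from 19 mice aged 8 months was hybridised, 1 array per mouse. The groups were wild-type (WT) littermates given vehicle (n = 6), APP/PS1 mice given vehicle (n = 7) and APP/PS1 mice given urolithin A (UA, n = 6). APP/PS1 is a transgenic mouse model of amyloid deposition whose transgenes are driven by a prion protein promoter, and UA is a gut microbial metabolite of dietary ellagitannins studied as an inducer of mitophagy. Gavage with UA began at 6 months and ended at 8 months, at a daily dose of 200 mg per kg in dimethyl sulfoxide (DMSO), and mice of the other groups received DMSO alone. No group went without DMSO and no WT mice received UA. Levels below are log2 of the array signal minus the array's 75th percentile (log2 relative signal), and they are compared between arrays for the same probe. In this bulk tissue, fewer cells of a type and less RNA per cell cannot be told apart.

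Complexes I to IV form the electron transport chain of the inner mitochondrial membrane. Complex I oxidises NADH and complex II succinate, complex III passes the electrons to cytochrome c and complex IV to oxygen, and complex V (ATP synthase) makes ATP from the proton gradient that complexes I, III and IV build. Subunits come from nuclear genes, apart from a small hydrophobic core encoded in mitochondrial DNA, and are assembled in fixed proportions. Neurons depend heavily on this pathway for synaptic transmission. NRF1, GABPA (an ETS factor), ERRA and YY1 are factors known to act at promoters of such genes.

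Promoters of 68 members were in a RefSeq promoter table (build GRCm38.p6, 73 promoters, from 250 bases before to 50 bases after each start). They were searched on both strands for GCATGCGC (NRF1), CCGGAAG (ETS), AAGGTCA (ERRA) and AAGATGG (YY1), and for CCAAT and GGGCGG (the GC box of Sp1). Of the member promoters 13.7% held the NRF1 letters, against 2.71% of all 32851 promoters in the table. The ETS letters were in 23.3% against 8.86%, the ERRA letters in 11% against 4.72% and the YY1 letters in 15.1% against 6.34%. CCAAT was in 42.5% against 37.4% and the GC box in 41.1% against 35.7%. At least 1 of the NRF1, ETS, ERRA and YY1 strings was in 49.3% of member promoters and in 20.7% of all promoters. Median GC content was 57.3% in the member promoters and 52.7% in all, and its part in these shares was not tested. None of the 6 strings contains another, and a promoter was counted once for a string however many matches it held.

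The last 150 bases before the start are given for 5 members on which the results turn, 2 that were lower and 1 that was higher in APP/PS1 vehicle mice, a complex II gene with an NRF1 string, and the tissue isoform Cox8b. Capitals mark any of the 6 strings, in either orientation, and all lines read 5′ to 3′ on the strand of the gene. The regions are chr10:128083157-128083306 (plus strand) for Atp5b, chr1:92473759-92473908 (minus strand) for Ndufa10, chr2:174464102-174464251 (minus strand) for Atp5e, chr4:140961121-140961270 (plus strand) for Sdhb and chr7:140900447-140900596 (minus strand) for Cox8b.
Atp5b: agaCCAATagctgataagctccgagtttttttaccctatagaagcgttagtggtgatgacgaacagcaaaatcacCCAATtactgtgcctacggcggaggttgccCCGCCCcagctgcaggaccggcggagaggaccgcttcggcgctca
Ndufa10: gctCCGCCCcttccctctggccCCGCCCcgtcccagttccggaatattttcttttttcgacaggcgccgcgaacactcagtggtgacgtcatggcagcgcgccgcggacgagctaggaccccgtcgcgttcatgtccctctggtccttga
Atp5e: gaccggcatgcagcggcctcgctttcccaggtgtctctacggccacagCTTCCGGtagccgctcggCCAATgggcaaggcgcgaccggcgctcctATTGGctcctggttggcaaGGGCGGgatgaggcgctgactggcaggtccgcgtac
Sdhb: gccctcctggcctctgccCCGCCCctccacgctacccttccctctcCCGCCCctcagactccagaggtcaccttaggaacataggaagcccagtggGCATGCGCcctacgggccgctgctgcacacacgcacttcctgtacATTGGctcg
Cox8b: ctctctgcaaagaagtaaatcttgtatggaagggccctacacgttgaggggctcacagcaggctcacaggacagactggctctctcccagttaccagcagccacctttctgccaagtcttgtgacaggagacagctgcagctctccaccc
Atp5e held an inverted ETS string, 2 CCAAT strings in opposite orientation and a GC box in this window, Atp5b held 2 CCAAT strings and an inverted GC box, and Ndufa10 held 2 inverted GC boxes. Sdhb held the NRF1 string, an inverted CCAAT and 2 inverted GC boxes. Cox8b held none of the 6. A match is a description of the letters only.

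Over all arrays the 75th percentile of the signal ran from 663 to 1776 intensity units and the share of probes above background from 51.4% to 59.4%. Of the 3 slides, the first carried all 6 WT arrays with 2 of APP/PS1 vehicle mice. The second carried the remaining 5 APP/PS1 vehicle arrays beside 3 of UA mice, and the last carried the other 3 UA arrays only. Levels of Xist and of genes on the Y chromosome gave 1 female among 6 WT mice, 3 among 7 on APP/PS1 vehicle and 1 among 6 on UA. All 8 neuron markers were detected and none was called between genotypes. Microglia markers were higher in APP/PS1 vehicle mice for 6 of 8 genes and astrocyte markers for 3 of 8, and 1 of 8 interneuron markers was lower. The mean of the neuron markers ran from 5.21 to 5.56 on WT, 4.89 to 5.36 on APP/PS1 vehicle and 5.15 to 5.47 on UA arrays, and that of the interneuron markers from 2.94 to 3.18, 1.96 to 2.98 and 2.79 to 3.05. The part of these cell markers in the subunit differences was not tested.

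Replicate 3 of the APP/PS1 vehicle group stood apart from the other 18 arrays. It had the lowest 75th percentile of signal and the highest mean subunit level of complexes I, II, III and V. Its mean over the 36 complex I subunits was 5.58, while the other APP/PS1 vehicle arrays ran from 4.99 to 5.12. For complex V it was 6.68, and the next highest array of its group was at 6.30. The means of the choroid plexus and ependyma markers were also lowest on this array, at -4.57 and -3.51. Values without it are given below for each subunit whose call changed when it was left out, and for many others. A difference printed without such a value may still depend on this array. No such values are given for the other mitochondrial genes.

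**Figure D1:**
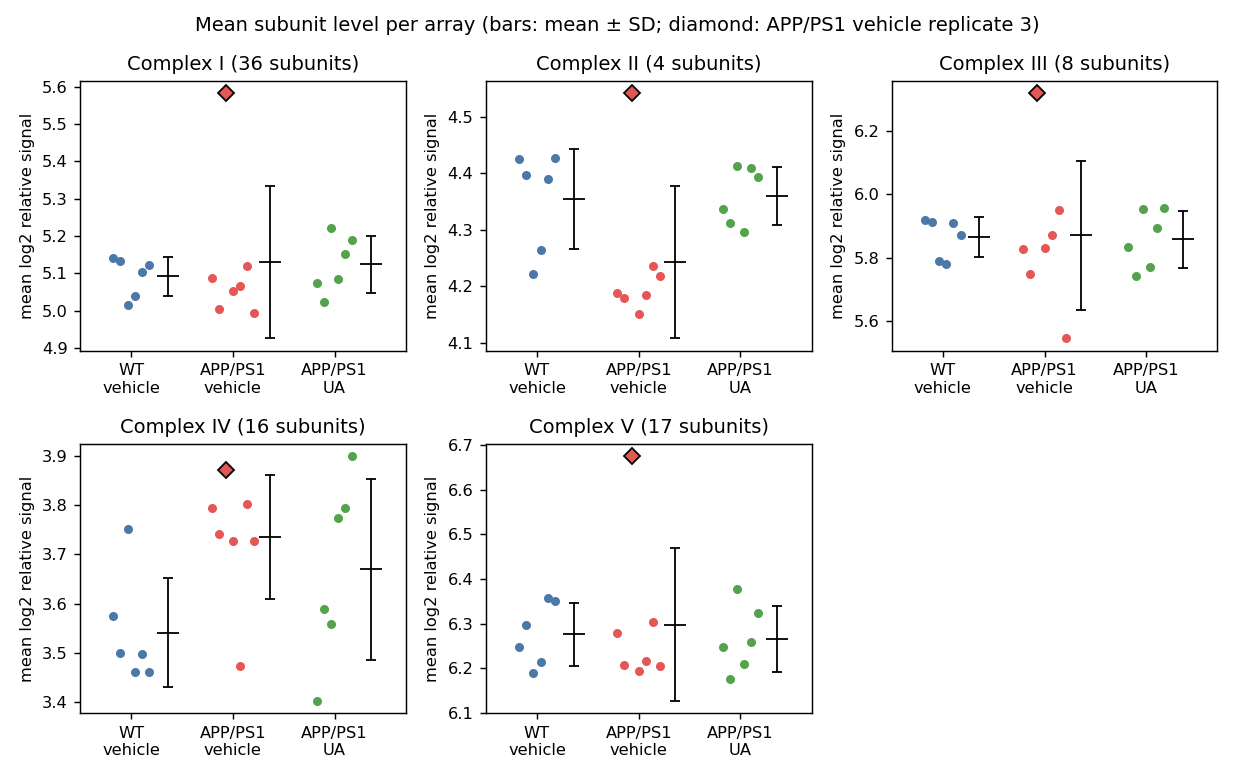
Mean log2 relative signal of the subunits of each complex on each array (points), with group mean and SD (bars), for WT vehicle (n = 6), APP/PS1 vehicle (n = 7) and APP/PS1 UA (n = 6). The diamond is APP/PS1 vehicle replicate 3, the highest array of all for complexes I, II, III and V. Without it the complex II means of APP/PS1 vehicle arrays end at 4.24, near the lowest WT array at 4.22.

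By complex, the group means differed by less than the spread between arrays in most cases. Complex I averaged 5.09 ± 0.05 (SD, n = 6) in WT, 5.13 ± 0.20 (n = 7) in APP/PS1 vehicle and 5.12 ± 0.08 (n = 6) in UA mice. Complex II averaged 4.35 ± 0.09, 4.24 ± 0.13 and 4.36 ± 0.05 in the same order, complex III 5.86 ± 0.06, 5.87 ± 0.24 and 5.86 ± 0.09, and complex V 6.28 ± 0.07, 6.30 ± 0.17 and 6.27 ± 0.07. Complex IV averaged 3.54 ± 0.11, 3.73 ± 0.13 and 3.67 ± 0.18, and its 6 tissue isoforms had a median difference of 0.35 between APP/PS1 vehicle and WT, beside 0.08 for the 10 widely expressed subunits. These medians were 0.34 and -0.01 without APP/PS1 vehicle replicate 3. Without replicate 3 the APP/PS1 vehicle means (n = 6) were 5.05 ± 0.05 for complex I, 4.19 ± 0.03 for II, 5.80 ± 0.14 for III, 3.71 ± 0.12 for IV and 6.24 ± 0.05 for V, so that complexes I, III and V turned from above to below the WT mean.

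The comparison of APP/PS1 vehicle with WT mice sets transgenic beside WT animals. These groups also differed in slide, sex and the level of choroid plexus markers, and the parts of these and of the transgenes cannot be fully told apart. Of the 83 subunits, 3 fell (Ndufa10, Atp5b and Atp5a1) and 2 rose (Atp5e and Atp5mpl), and 4 of these 5 belong to ATP synthase. In limma at a Benjamini-Hochberg adjusted p under 0.05 over all genes tested (a call, below), 6.02% of the members were called, against 5.05% of all genes (2.28% lower and 2.77% higher). Of all 1294 genes called, 710 were higher, and this split moved with the scaling: 1448 of 1986 with normexp background correction, 830 of 1278 with the percentile restricted to probes that every array detected, and 323 of 804 in the deposited table. The share of members is near this background, so the count itself says nothing particular of oxidative phosphorylation. At an unadjusted p under 0.05 the shares were 22.9% of members and 23.7% of all genes. The median difference over the members was 0.04, with 48 above 0 and 35 below, beside a median of 0.01 over all genes tested. Every APP/PS1 vehicle array lay above every WT array for 2 members (Atp5e and Atp5mpl), where 1.47% of all genes did so, and below every WT array for 0 members, where 0.847% did.

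**Figure D2:**
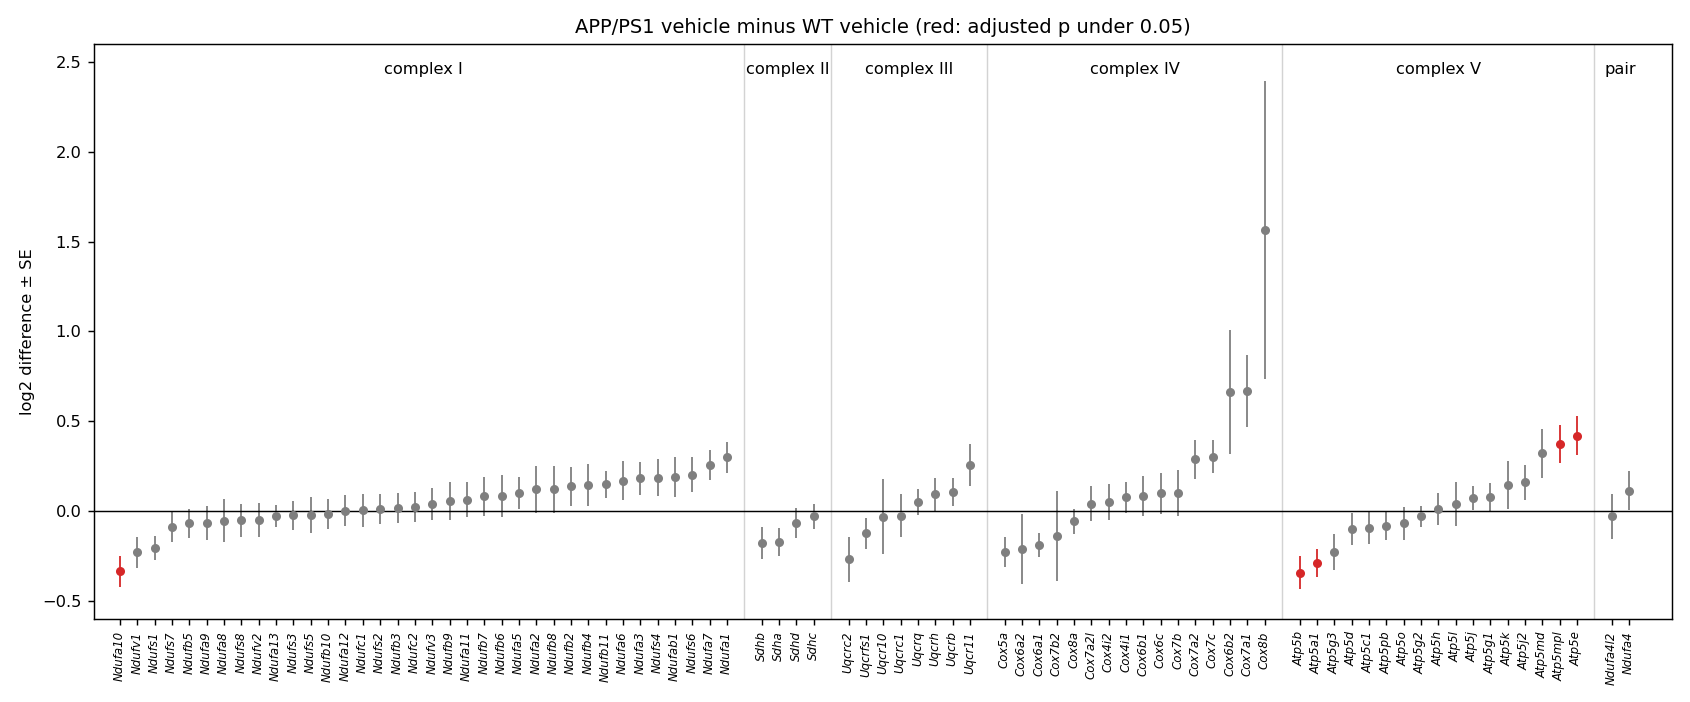
Difference in log2 relative signal between APP/PS1 vehicle (n = 7) and WT vehicle (n = 6) for each of the 83 subunits, with the SE of the limma fit, ordered by size within each complex. The 5 subunits in red had an adjusted p under 0.05. Cox8b has the largest difference, 1.56, with an SE of 0.83.

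Complex V held 4 of the 5 calls, 2 in each direction. The catalytic head of ATP synthase is built from alpha and beta subunits, encoded by Atp5a1 and Atp5b. Atp5b ran from 7.55 to 8.00 on WT arrays (median 7.92), from 7.23 to 7.79 on APP/PS1 vehicle arrays (median 7.51) and from 7.44 to 7.70 on UA arrays (median 7.58). All 7 APP/PS1 vehicle arrays lay below the WT mean and 5 of them below the lowest WT array. Atp5b fell by 0.34 on the log2 scale (SE 0.09, limma adjusted p = 0.0392), which is 1.27-fold lower. Atp5a1 ran from 7.68 to 8.09 (median 7.97) on WT, from 7.58 to 7.83 (median 7.63) on APP/PS1 vehicle and from 7.54 to 7.92 (median 7.73) on UA arrays. Here too 5 APP/PS1 vehicle arrays lay below the lowest WT array. Atp5a1 was 1.22-fold lower (log2 difference -0.29, SE 0.08, adjusted p = 0.0402).

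The 2 subunits that rose are small. Atp5e encodes the epsilon subunit of the central stalk, and it ran from 5.68 to 5.87 on WT (median 5.79), from 6.03 to 6.75 on APP/PS1 vehicle (median 6.10) and from 5.75 to 6.22 on UA arrays (median 5.91). The APP/PS1 vehicle and WT arrays did not overlap, while the UA arrays spanned the gap between them. The rise was 1.34-fold (log2 difference 0.42, SE 0.11, adjusted p = 0.0374), and without replicate 3 it was 0.33 (adjusted p = 0.0304). Atp5mpl, a small proteolipid of the membrane part, ran from 5.58 to 5.78 on WT (median 5.65), from 5.78 to 6.62 on APP/PS1 vehicle (median 5.98) and from 5.72 to 6.04 on UA arrays (median 5.88). Its highest WT and lowest APP/PS1 vehicle arrays nearly touched. It was 1.30-fold higher (log2 difference 0.37, SE 0.10, adjusted p = 0.0469), and 0.28 higher without replicate 3 (adjusted p = 0.0257).

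**Figure D3:**
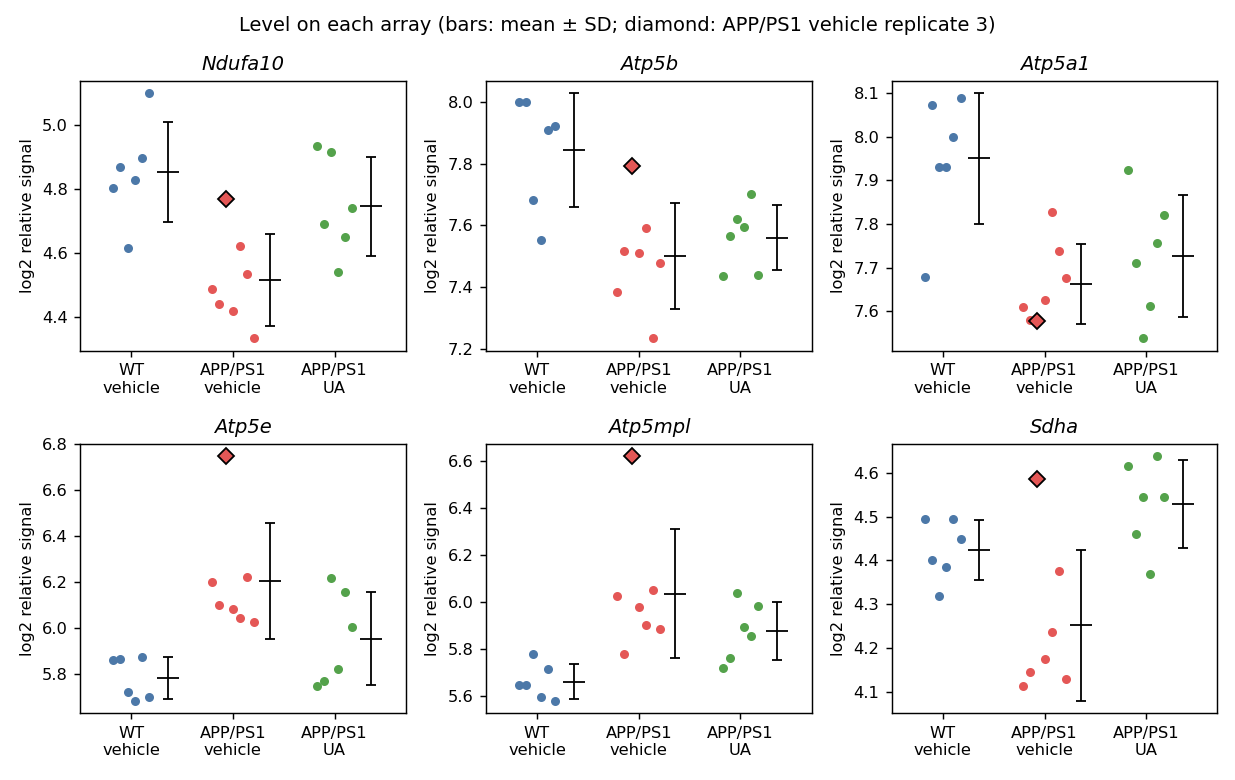
Log2 relative signal of the 5 called subunits and of Sdha on each array (points) with group mean and SD (bars), in WT vehicle (n = 6), APP/PS1 vehicle (n = 7) and APP/PS1 UA mice (n = 6). Ndufa10, Atp5b and Atp5a1 are lower, and Atp5e and Atp5mpl higher, on APP/PS1 vehicle arrays than on those of WT mice. The diamond is APP/PS1 vehicle replicate 3, which is far above the rest of its group for Atp5e and Atp5mpl.

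By position in the enzyme, 4 of the 5 subunits of the F1 part and central stalk differed by less than 0 and all 5 small membrane subunits by more than 0. The median was -0.10 for the first set and 0.16 for the second, and -0.16 and 0.07 without replicate 3, with the same counts on each side of 0. Of the membrane subunits only Atp5mpl was called, and the nearest other was Atp5md (0.32, SE 0.14, adjusted p = 0.171), at 0.19 without replicate 3. Atp5c1 and Atp5d of the F1 part differed by -0.10 each and were not called. Of 4 peripheral stalk subunits none was called, with a range from -0.08 to 0.07. The c ring, which turns as protons pass, is encoded by 3 genes with the same mature protein: Atp5g1 differed by 0.08 (SE 0.08), Atp5g2 by -0.03 (SE 0.06) and Atp5g3 by -0.23 (SE 0.10, adjusted p = 0.173). Without replicate 3, Atp5g3 was called lower (-0.32, adjusted p = 0.0128).

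In complex I, Ndufa10 fell and no other subunit was called. Ndufa10, an accessory subunit of the nucleoside kinase family, ran from 4.62 to 5.10 on WT (median 4.85), from 4.33 to 4.77 on APP/PS1 vehicle (median 4.49) and from 4.54 to 4.93 on UA arrays (median 4.72). All 7 APP/PS1 vehicle arrays lay below the WT mean. It was 1.26-fold lower (log2 difference -0.34, SE 0.09, adjusted p = 0.0364). Of the 7 core subunits, which carry the flavin and iron-sulfur clusters, 6 differed by less than 0 and 0 were called: the electron-transfer subunits Ndufv1 (-0.23, SE 0.09, adjusted p = 0.122) and Ndufs1 (-0.21, SE 0.07, adjusted p = 0.0781) were furthest below 0. Of the 29 accessory subunits 22 differed by more than 0, with a median of 0.08 beside -0.05 for the core. These counts rested largely on replicate 3: without it 11 of 29 accessory subunits and 0 of 7 core subunits were above 0, with medians of -0.02 and -0.12. The small membrane subunit Ndufa1, encoded on the X chromosome, came closest to a call upward (0.30, SE 0.09, adjusted p = 0.0520). Its WT arrays ran from 5.60 to 5.82 (median 5.70), its APP/PS1 vehicle arrays from 5.75 to 6.37 (median 6.00) and its UA arrays from 5.78 to 6.16 (median 5.87), so that 6 of 7 APP/PS1 vehicle arrays exceeded every WT array. The Ndufb and Ndufc genes, mostly of the membrane arm, ranged from -0.07 to 0.15 (10 of 12 above 0), and from -0.14 to 0.10 without replicate 3 (3 of 12 above 0).

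Complex II (succinate dehydrogenase) also belongs to the tricarboxylic acid cycle. All 4 subunits differed by less than 0 (median -0.12) and none was called. Sdha, the flavoprotein that oxidises succinate, ran from 4.32 to 4.50 on WT (median 4.42), from 4.11 to 4.59 on APP/PS1 vehicle (median 4.17) and from 4.37 to 4.64 on UA arrays (median 4.54). Of the 7 APP/PS1 vehicle arrays, 5 lay below every WT array and replicate 3 lay above every WT array. The difference was -0.17 (SE 0.08, adjusted p = 0.182), and without replicate 3 it was -0.23 (adjusted p = 0.0403). The iron-sulfur subunit Sdhb differed by -0.18 (SE 0.09, adjusted p = 0.223), and by -0.25 (adjusted p = 0.0372) without that array. The membrane anchors Sdhc (-0.03, SE 0.07) and Sdhd (-0.07, SE 0.09) had differences within their SE.

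Complex III differed in both directions, with 4 subunits above 0, 4 below and none called. Uqcrc2, a large core protein of the matrix side, had the smallest p (-0.27, SE 0.12, adjusted p = 0.193). Its WT arrays ran from 5.35 to 6.11 (median 5.52), its APP/PS1 vehicle arrays from 5.13 to 5.88 (median 5.19) and its UA arrays from 5.45 to 5.58 (median 5.49). A single WT array (replicate 1) and a single APP/PS1 vehicle array (replicate 3) lay far above the others of their groups. Leaving out replicate 3 of the APP/PS1 vehicle group gave -0.36 (adjusted p = 0.0415), and leaving out WT replicate 1 gave -0.17 (adjusted p = 0.338). The small subunit Uqcr11 differed upward (0.26, SE 0.12, adjusted p = 0.194), by 0.15 without replicate 3, its highest array. Uqcr10 differed by -0.03 (SE 0.21) at its brightest probe and by 0.34 at its second probe (adjusted p = 0.106 over all probes). At the brightest probe a single APP/PS1 vehicle array (replicate 7) was at 5.17, and the other 6 ran from 6.52 to 7.07. Uqcrb, which helps to bind ubiquinone, differed by 0.11 (SE 0.08), and by 0.05 without APP/PS1 vehicle replicate 3.

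None of the 16 complex IV subunits was called. Among the 10 widely expressed subunits, Cox7c was highest (0.30, SE 0.09, adjusted p = 0.0658). It ran from 4.26 to 4.49 on WT (median 4.42), from 4.45 to 5.20 on APP/PS1 vehicle (median 4.66) and from 4.35 to 4.60 on UA arrays (median 4.47). Cox7a2 differed by 0.29 (SE 0.11, adjusted p = 0.118). Cox5a (-0.23, SE 0.08, adjusted p = 0.109) and Cox6a1 (-0.19, SE 0.07, adjusted p = 0.101) were lowest, and both were called lower without replicate 3, at -0.29 (adjusted p = 0.0190) and -0.22 (adjusted p = 0.0461). The other widely expressed partners of paralog pairs differed little: Cox4i1 by 0.08 (SE 0.09), Cox6b1 by 0.08 (SE 0.11), Cox7a2l by 0.04 (SE 0.10) and Cox8a by -0.06 (SE 0.07). Without replicate 3 these were 0.01, -0.02, -0.03 and -0.11.

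Tissue isoforms of complex IV had the largest errors: the SE of the difference was 0.83 for Cox8b and 0.34 for Cox6b2, the highest of the 83 members. Cox8b and Cox7a1 are isoforms best known from heart and skeletal muscle, and Cox6b2 from testis. Cox8b ran from -2.22 to 1.27 on WT (median -1.80), from -3.04 to 1.94 on APP/PS1 vehicle (median 0.80) and from -2.02 to 1.67 on UA arrays (median 0.78). Each group held a low and a high set of arrays, and only WT replicate 3 was high among the WT arrays. The difference between APP/PS1 vehicle and WT was 1.56 (adjusted p = 0.255), and 2.11 without replicate 3 (adjusted p = 0.0857). Cox6b2 differed by 0.66 (SE 0.34, adjusted p = 0.248) and Cox7a1 by 0.67 (SE 0.20, adjusted p = 0.0606). For Cox7a1, WT arrays ran from -0.34 to 0.51 (median -0.26), APP/PS1 vehicle arrays from -0.09 to 1.04 (median 0.53) and UA arrays from -0.19 to 0.89 (median 0.44). Leaving out WT replicate 3 or APP/PS1 vehicle replicate 5 brought Cox7a1 to an adjusted p of 0.0227 in each case, at differences of 0.79 and 0.78. Cox6a2, another muscle isoform, differed by -0.21 (SE 0.20), Cox4i2 by 0.05 (SE 0.10) and Cox7b2 by -0.14 (SE 0.25). Without APP/PS1 vehicle replicate 3 these were -0.32, -0.04 and -0.25.

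The high arrays for Cox8b, Cox6b2 and Cox7a1 were those with high choroid plexus markers (Ttr, Folr1, Kl, Kcne2, Clic6, Otx2, Sostdc1, Aqp1, Slc4a5 and F5). All 10 markers were tested and none was called. Their mean ran from -2.46 to 2.94 on WT, from -4.57 to 3.60 on APP/PS1 vehicle and from -3.16 to 2.96 on UA arrays. On 10 arrays (1 WT, 5 APP/PS1 vehicle and 4 UA) it lay between 1.91 and 3.60, and on the other 9 between -4.57 and -0.80. Cox8b lay between 0.45 and 1.94 on the 10 arrays and between -3.04 and -1.49 on the other 9. Cox6b2 lay between -0.84 and 0.09 against -2.03 to -1.47, and Cox7a1 between 0.40 and 1.04 against -0.34 to 0.32. Cox6a2 went the other way, with a mean of 1.14 on the 10 and 1.65 on the 9, as did Cox4i2 (-1.36 and -1.20). Means of Cox7b2 were -3.33 and -3.39. Cox8b, Cox6b2 and Cox7a1 were the 3 members whose values did not overlap between the 10 arrays and the 9. The share of all genes that did so is not given here, so the count is not set against a background. Among the 9 arrays, the mean of the 2 APP/PS1 vehicle arrays differed from that of the 5 WT arrays by -0.39 for Cox8b, and among the 10 the 5 APP/PS1 vehicle arrays differed from the single WT array by -0.06. For Cox7a1 these values were 0.35 and 0.23. These values within the 9 and the 10 are descriptions with no test. With the marker mean as a covariate in limma, an alternative chosen after seeing the data, Cox8b differed by 0.42 (adjusted p = 0.180), Cox6b2 by 0.22 (adjusted p = 0.391) and Cox7a1 by 0.44 (adjusted p = 0.0575).

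The 5 called subunits overlapped between the 10 arrays and the 9. The mean of the 10 minus that of the 9 was -0.31 for Ndufa10, -0.25 for Atp5b and -0.14 for Atp5a1. For Atp5e it was 0.04 and for Atp5mpl 0.07. The 10 and the 9 held the groups in unequal numbers, so the parts of group and markers in these values cannot be fully told apart. Differences between APP/PS1 vehicle and WT moved within the 10 and the 9. Among the 9 and the 10 respectively, Ndufa10 differed by -0.20 and -0.17 between APP/PS1 vehicle and WT, Atp5b by -0.18 and -0.26, and Atp5a1 by -0.25 and -0.29. Atp5e differed by 0.60 and 0.41 and Atp5mpl by 0.62 and 0.17, where the 9 hold replicate 3 as 1 of 2 APP/PS1 vehicle arrays and the 10 hold a single WT array. With the marker mean as a covariate, Ndufa10 (-0.24, limma adjusted p = 0.0253), Atp5e (0.49, adjusted p = 0.0159) and Atp5mpl (0.43, adjusted p = 0.0284) were called, and Atp5b (-0.29, adjusted p = 0.0660) and Atp5a1 (-0.28, adjusted p = 0.0560) were not.

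**Figure D4:**
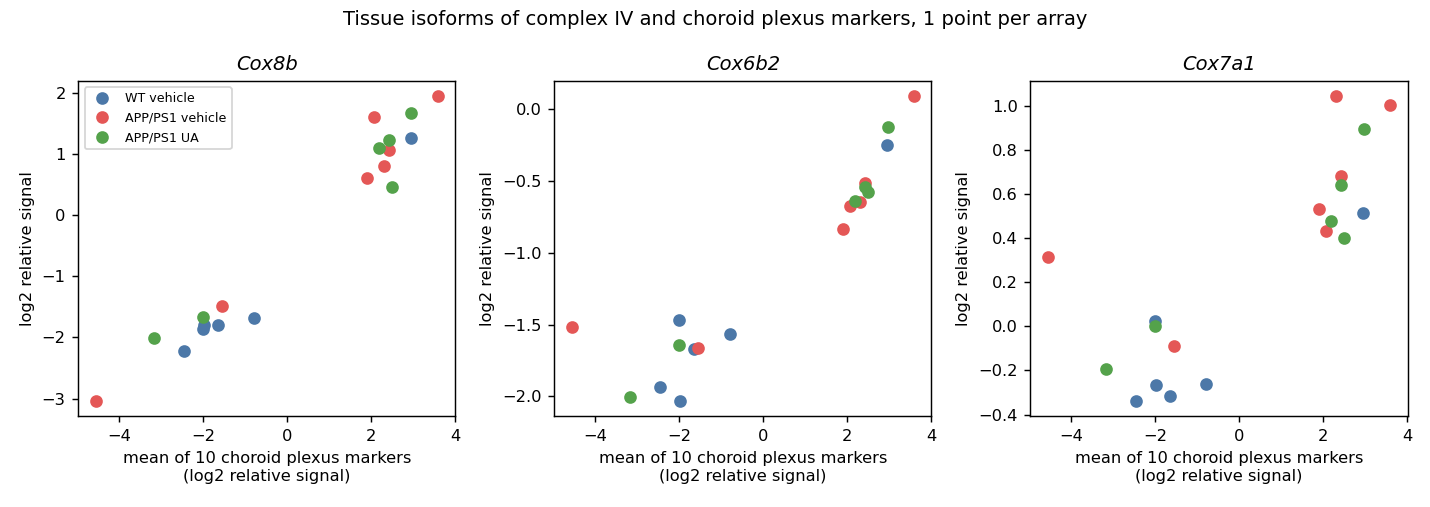
Log2 relative signal of Cox8b, Cox6b2 and Cox7a1 (vertical axes) against the mean of 10 choroid plexus markers (horizontal axis), 1 point per array, coloured by group. The arrays fall into 10 with a marker mean of at least 1.91 and 9 with at most -0.80, and each isoform is higher on all of the 10. Of the 10 arrays 1 was from WT, 5 from APP/PS1 vehicle and 4 from UA mice.

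Without APP/PS1 vehicle replicate 3, 13 of the 83 members were called between APP/PS1 vehicle and WT, against 6.64% of all genes. All 5 that were called with every array remained. The 8 added were lower in APP/PS1 vehicle mice: Uqcrc2, Atp5g3, Ndufv1, Cox5a, Sdhb, Ndufs1, Sdha and Cox6a1, which belong to all 5 complexes. Their differences ran from -0.36 to -0.22. Replicate 3 was singled out by its subunit levels and was the highest APP/PS1 vehicle array for each of these 8. Leaving it out therefore lowers their APP/PS1 vehicle means by construction, and the added calls are no separate support. The median over all members turned from 0.04 to -0.03, with 53 members below 0 and 30 above. Leaving out APP/PS1 vehicle replicate 5 or WT replicate 3 gave 9 and 8 calls, and the other 10 WT and APP/PS1 vehicle arrays, left out in turn, gave 0 to 3 calls: without APP/PS1 vehicle replicate 1 or 6 or WT replicate 2, 5 or 6 no member was called, and without APP/PS1 vehicle replicate 2, 4 or 7 or WT replicate 1 or 4 there were 1, 1, 2, 3 and 1. Of all 25599 genes, 2010 and 2266 were called without APP/PS1 vehicle replicate 5 and WT replicate 3. Without APP/PS1 vehicle replicates 1 and 6 there were 577 and 737, and without WT replicates 2, 5 and 6 there were 453, 548 and 391. APP/PS1 vehicle replicates 2, 4 and 7 left out gave 813, 1050 and 754, and WT replicates 1 and 4 gave 1062 and 716. Calls of members and of all genes thus depended on single arrays of both groups. The 5 differences kept their signs in all of these fits.

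**Figure D5:**
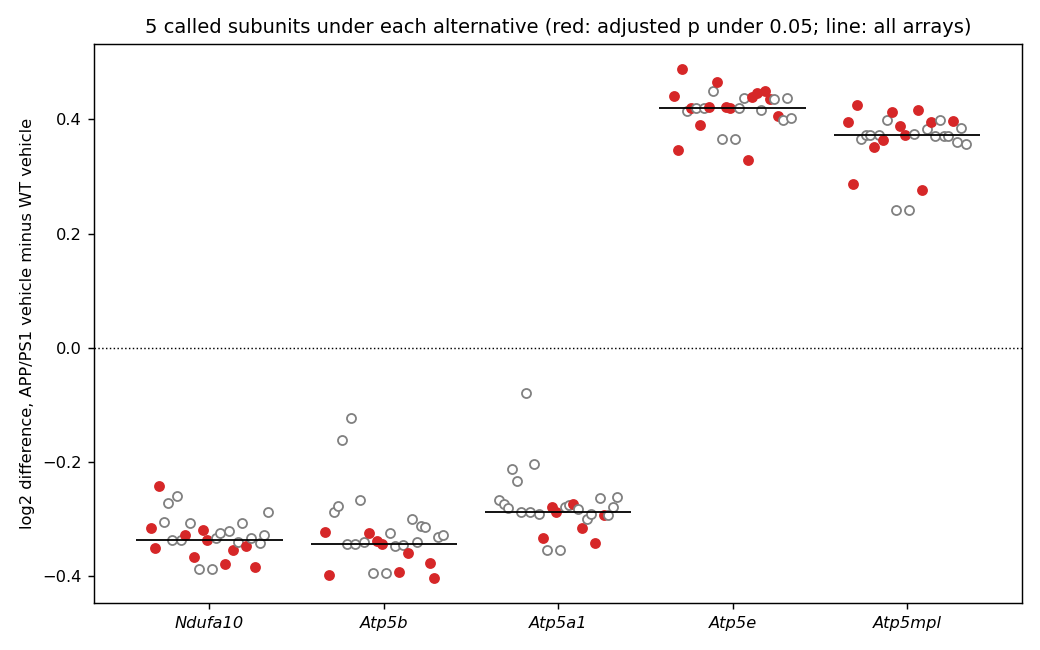
Difference in log2 relative signal, APP/PS1 vehicle minus WT vehicle, of the 5 called subunits under each alternative (points), with the value from all arrays as a black line. Red points had an adjusted p under 0.05. Ndufa10, Atp5b and Atp5a1 stay below 0 and Atp5e and Atp5mpl above 0 under every alternative shown, while the calls come and go.

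Slide differed between groups too. With slide as a block, or on slide 1 alone (6 WT and 2 APP/PS1 vehicle arrays), none of the 83 members was called. The differences within slide 1 were -0.39 for Ndufa10, -0.39 for Atp5b, -0.35 for Atp5a1, 0.37 for Atp5e and 0.24 for Atp5mpl. The first 4 were close to those over all arrays, which include these same arrays. Both APP/PS1 vehicle arrays of slide 1 had high choroid plexus markers, as did 1 of the 6 WT arrays. The lowest adjusted p among these 5 on slide 1 was 0.142, for Atp5e.

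Probes of 1 gene did not always give the same size of difference. Of 17 members with more than 1 kept probe, 13 had all probes in 1 direction. The second probe of Ndufa10 gave -0.21 (adjusted p = 0.200 over all probes) and that of Atp5a1 -0.18 (adjusted p = 0.241). The other probes of Atp5b gave -0.14 (adjusted p = 0.214) and 0.00 (adjusted p = 0.992). The 3 falls were thus called at the brightest probe of each gene and not at the others. Besides Atp5b and Uqcr10, Ndufb5 (-0.07 and 0.01) and Atp5o (-0.07 and 0.01) had probes on either side of 0, all far from the threshold. Between UA and vehicle, the second probe of Sdha gave 0.03 (adjusted p = 0.864), beside 0.28 at the brightest, that of Cox7c -0.03 (adjusted p = 0.938) and that of Ndufa10 0.14 (adjusted p = 0.504).

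A feature that the choice of members did not use is the length of the gene. Across the 83 members, the difference between APP/PS1 vehicle and WT was lower for longer genes (Pearson's r = -0.40 and Spearman's rho = -0.36 with log10 of the gene's span in RefSeq). Across all 16103 genes with a symbol these were -0.16 and -0.18. Without replicate 3, r was -0.37 over the members and -0.10 over all genes with a symbol. All genes share the same arrays and are not independent, so the values only describe this data set.

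The comparison of UA with vehicle in APP/PS1 mice asks what differed with the compound. These groups also differed in slide and in sex (1 female of 6 on UA and 3 of 7 on vehicle). The parts of these and of the compound cannot be fully told apart. None of the 83 subunits was called, and none of the 25599 genes (0%). With normexp background correction 1836 genes were called, 1 of them a member (Sdha). At an unadjusted p under 0.05, limma gave 5 members (6.02%), against 15.4% of all genes. Sdha had the smallest p: it was 0.28 higher in UA than in vehicle mice (SE 0.08, adjusted p = 0.143), and all 6 UA arrays lay above the vehicle mean, 2 of them above every vehicle array. Ndufa10 was 0.23 higher (SE 0.09, adjusted p = 0.231), also on 6 of 6 arrays. Atp5e differed by -0.25 (SE 0.11, adjusted p = 0.288), Cox7c by -0.22 (SE 0.09, adjusted p = 0.262) and Uqcr11 by -0.22 (SE 0.12, adjusted p = 0.376). Without vehicle replicate 3, the highest array of its group for Atp5e and Uqcr11, these 3 were -0.16, -0.14 and -0.11. Cox4i2, whose isoform is known from lung and low oxygen, differed by -0.23 (SE 0.10, adjusted p = 0.299). Atp5b (0.06, SE 0.09) and Atp5a1 (0.06, SE 0.08) differed by less than their SE. Leaving out vehicle replicate 3 gave 0.11 (SE 0.09) for Atp5b, 0.05 (SE 0.08) for Atp5a1 and -0.14 for Cox4i2.

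By complex, all 4 complex II subunits differed by more than 0 between UA and vehicle (median 0.09), and medians were -0.02 for complex I, -0.02 for complex III, -0.06 for complex IV and -0.01 for complex V. Over all members the median was -0.01, beside -0.01 over all genes tested when rounded to 2 decimals. Sdhb differed by 0.12 (SE 0.09), Sdhd by 0.07 (SE 0.09) and Sdhc by 0.01 (SE 0.07). Core subunits of complex I lay above 0 for 6 of 7 and accessory subunits for 9 of 29, and without vehicle replicate 3 for 7 of 7 and 21 of 29. This comparison shares its vehicle arrays, replicate 3 included, with the comparison of genotypes, so opposite signs in both are not independent. Without replicate 3, the medians of complexes I, III, IV and V were 0.06, 0.04, 0.00 and 0.05, and that of complex II was 0.15.

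Between UA-treated APP/PS1 and WT mice, 0 of 83 members and 0.0898% of all genes were called, all of them higher in UA mice. These groups shared no slide, so the parts of slide, genotype and compound in their differences cannot be told apart. At an unadjusted p under 0.05 there were 6 members (7.23%) and 8.65% of all genes in limma. Atp5b was lowest at -0.29 (SE 0.10, adjusted p = 0.404), beside Atp5a1 at -0.22 (SE 0.08, adjusted p = 0.453) and Cox6a1 at -0.18 (SE 0.07, adjusted p = 0.484). For Cox6a1 the highest UA array (9.081) lay just below the lowest WT array (9.083), and its difference turned to 0.05 with normexp background correction. The share of all genes without overlap between UA and WT arrays is not given here. Ndufa1 was 0.19 higher (SE 0.09, adjusted p = 0.560), Sdha 0.10 higher (SE 0.08, adjusted p = 0.724) and Uqcrb 0.11 higher (SE 0.08, adjusted p = 0.722). Cox8b had the largest difference (1.48, SE 0.86, adjusted p = 0.650), with the split between arrays described above.

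Neither gene of the pair Ndufa4 and Ndufa4l2 was called. Ndufa4 differed by 0.11 (SE 0.11) and Ndufa4l2, a paralog induced in low oxygen, by -0.03 (SE 0.12) between APP/PS1 vehicle and WT. Without replicate 3 these were 0.03 and -0.12. With UA against vehicle the differences were -0.01 and 0.09, and 0.07 and 0.18 without vehicle replicate 3.

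Other mitochondrial genes were taken from lists written with earlier results of these data in view. Of 20 genes of the tricarboxylic acid cycle and pyruvate entry, 4 fell in APP/PS1 vehicle against WT mice and none rose (median -0.17), beside 2.28% of all genes lower. Mdh2, mitochondrial malate dehydrogenase, averaged 7.81 ± 0.16 (SD, n = 6) in WT and 7.38 ± 0.12 (n = 7) in APP/PS1 vehicle mice, 1.34-fold lower (SE 0.09 on the log2 scale, limma adjusted p = 0.00961). Idh3a, a subunit of NAD-dependent isocitrate dehydrogenase, was 1.18-fold lower (adjusted p = 0.0355). Dlst of the oxoglutarate dehydrogenase complex (1.16-fold, adjusted p = 0.0424) and Sucla2 of succinyl-CoA synthetase (1.17-fold, adjusted p = 0.0477) were lower too. Idh2 (0.39, adjusted p = 0.0881) and Suclg2 (0.38, adjusted p = 0.0760), chosen after their values were seen, differed the other way without a call.

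Of 13 regulators of respiratory genes 1 fell: Esrrg, which encodes an estrogen-related receptor, was 1.39-fold lower (log2 difference -0.48, SE 0.09, adjusted p = 0.00843). It averaged 0.34 ± 0.14 (SD, n = 6) in WT, -0.13 ± 0.22 (n = 7) in APP/PS1 vehicle and 0.23 ± 0.10 (n = 6) in UA mice. In UA against vehicle mice it was 0.36 higher (SE 0.09, adjusted p = 0.128), not called. None of 16 carriers, porins and cristae genes was called; Vdac2 had the smallest p (-0.22, adjusted p = 0.0727). None of 18 complex I assembly factors (Tmem186, -0.27, adjusted p = 0.111), of 36 assembly factors of the other complexes (Pet100, 0.32, adjusted p = 0.0746) or of 15 partners such as cytochrome c1 and coenzyme Q genes (Cyc1, -0.25, adjusted p = 0.150) was called. In UA against vehicle mice no gene of these 6 lists was called, and medians ran from 0.02 to 0.11. The smallest p values there belonged to Idh3a (adjusted p = 0.169), Esrrg, Timmdc1 (0.199), Cox15 (0.236), Vdac3 (0.258) and Pdss2 (0.311). The subunits encoded in mitochondrial DNA were not analysed here, as no probe was matched to them.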

How the data were processed

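Each of 19 hybridisations was taken as 1 mouse, since the numbers of mice in the design text equal those of the arrays. The authors deposited Agilent scanner output with an intensity per spot (Feature Extraction 12.0.3.1, per the file headers), in which gProcessedSignal is background-subtracted and dye-normalized. The labels describe the green channel only. The headers name a 2-colour protocol, so the green signal was dye-normalized against a red channel of unknown content, which may enter every level; the red signal itself was not used. The deposited value table (a score per probe, a standardised log signal by its values, within 0.005 of a recomputed z-score) served as an alternative.

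From the files, log2(gProcessedSignal) minus each array's 75th percentile was computed without control spots, spots of a probe were averaged, and 33450 of 56605 probes that were well above background on at least 6 arrays were kept. Accessions were named through a RefSeq table (GRCm38.p6), and the brightest kept probe stood for a gene, so a low probe of the same gene does not enter. All 3 groups were fitted together in limma 3.58.1 (lmFit and eBayes) under R 4.3.3 with Benjamini-Hochberg adjustment over 25599 genes and a threshold of 0.05. The code was tested on simulated data. The number of arrays limits the precision.

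Members, pathway lists, marker lists and the naming rule were chosen with earlier results of these data known. Text names every called subunit, the smallest p per complex and comparison, the largest differences, paralog sets, genes whose probes disagree and up to 4 genes per list. Lists were neuron, interneuron, astrocyte, oligodendrocyte, microglia, endothelium and mural, choroid plexus, ependyma and blood markers. No oligodendrocyte, endothelium and mural, ependyma or blood marker was called between genotypes. Alternatives were other backgrounds (normexp, offset 50, on the median signal, as the files hold no mean signal), scalings, filters, probe rules, sex, slide and replicate blocks, and each array left out. Protein sequences were not analysed here.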

Additional observations from a re-analysis of the deposited data

Results flagged for a closer look

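Of 57 groups of values tested for an array standing apart from the rest of its group, 11 had such an array. Chance gives about 1 in 20 for a single group. The groups share arrays and subunits, so this rate does not apply to the count. In the APP/PS1 vehicle group, 8 of the 11 were replicate 3. Its mean level was 5.58 for complex I, 4.54 for complex II and 6.68 for complex V, and its level was 6.75 for Atp5e, 6.62 for Atp5mpl, 5.88 for Uqcrc2, 6.94 for Uqcr11 and 5.46 for Uqcrb, each the highest of its group. The complex IV mean of APP/PS1 vehicle replicate 5 was the lowest of its group, at 3.47, where the next was 3.73. Among WT arrays, Uqcrc2 was at 6.11 on replicate 1, next to 5.63, and Cox8b was at 1.27 on replicate 3, next to -1.69. In the red channel, for which the labels describe no sample, 82 members were well above background on all 19 arrays.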

How the results depend on the processing

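The count of 5 subunits called between APP/PS1 vehicle and WT moved with most choices. It was 0 in the deposited value table, with no filter on dim probes, with only the 2 groups compared, with slide as a block and within a single slide, 1 with the mean of kept probes, 8 with probes well above background on all arrays and 9 with sex as a covariate. Leaving out 1 array at a time gave 0 to 13. With the choroid plexus marker mean as a covariate it was 4, and without APP/PS1 vehicle replicates 3 and 7 it was 7 (both chosen after seeing the data). The replicate block gave 0. Over all genes the calls, 1294 of 25599 with the main choices, moved too. There were 804 in the deposited table, 353 of 45616 with no filter on dim probes and 426 with only the 2 groups compared. Slide as a block gave 77, a single slide 23 and the replicate block 346. The mean of kept probes gave 988, probes well above background on all arrays 1653 of 20707 and sex 1986. The choroid plexus covariate gave 1258, and leaving out replicates 3 and 7 gave 661. The deviations of same-numbered arrays of different groups correlated at -0.55 to 0.39 over 18 pairs, 8 of them above 0.1, and 4 correlated best with their own number, so the numbers were not taken as pairs. The signs of Atp5a1, Atp5b, Ndufa10, Atp5e and Atp5mpl held in all 28 alternatives. Between UA and vehicle the count of subunits was 1 with normexp (Sdha, adjusted p = 0.0337 in limma) and 0 otherwise, and that of all genes 1836 with normexp against 0. Between UA and WT, Cox6a1 turned to 0.0522 with normexp, Sdha to -0.0115 with the mean of kept probes, and with slide as a block Sdha turned to -0.0541, Ndufa1 to -0.0125 and Uqcrb to -0.0303, while the complex III median moved to -0.18. The causes were not tested. Arrays per group, 6 or 7, limit what can be called.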
